A study of Mus musculus with 8 samples.

Results

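A set of 10 genes of the EGR and AP-1 immediate early group was followed in gut intraepithelial lymphocytes (IELs), T cells housed within the single-layered epithelium of the intestine. They were Egr1, Egr2, Egr3, Fos, Fosb, Jun, Junb, Jund, Atf3 and Ier2, taken by symbol, and all 10 were among the 25230 gene symbols of the count table. The animals were C57BL/6J mice, and every one of them received 35 µg of an antibody against CD3, the signalling complex of the T cell receptor, into the peritoneum. In the exendin-4 group (Ex4, 4 mice) this was combined with 10 nmol/kg of exendin-4, an agonist of the receptor for glucagon-like peptide 1, and in the other group (PBS, 4 mice) with saline. Gut cells were taken 3 hours later, concentrated by Percoll density separation, and CD45+ leukocytes were isolated by flow cytometry. Animals without anti-CD3 are not analysed here, so each value is a level in CD45-sorted gut cells of anti-CD3-treated mice and not an induction. The age and sex of the mice are not given in the labels.

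EGR and AP-1 proteins are transcription factors whose genes are switched on within minutes of a receptor signal, without new protein synthesis, and whose messengers decay quickly. In T cells, EGR1 to EGR3 are induced through the RAS and ERK kinases, and EGR2 and EGR3 also restrain activation. AP-1 is a dimer of a JUN protein with a FOS, ATF or second JUN protein, and together with NFAT it drives cytokine genes. Signals that raise cyclic AMP, as the receptor for glucagon-like peptide 1 does, act on several of these genes through CREB, which binds the cyclic AMP response element (CRE). Serum response factor (SRF), which binds the CArG box, is the other main regulator of their promoters.

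Upstream sequences are shown for 4 of the genes because they hold matches to the motifs of these regulators. Promoter entries were found for 7 of the 10 genes in RefSeq sequences of GRCm38.p6, but not for Egr1, Egr3 and Ier2. Each line gives the 140 bases before an annotated start site, 5′ to 3′ on the strand of the gene. Capitals mark the CRE half-site TGACG or its complement CGTCA, the CArG box, the EGR site GCGNGGGCG and the TATA box TATAAA. The Egr2 sequence belongs to 1 of 5 annotated start sites.
Fos, chr12:85473750-85473889, plus strand: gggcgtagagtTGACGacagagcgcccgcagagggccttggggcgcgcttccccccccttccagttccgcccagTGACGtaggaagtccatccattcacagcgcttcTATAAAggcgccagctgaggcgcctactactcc
Fosb, chr7:19310046-19310185, minus strand: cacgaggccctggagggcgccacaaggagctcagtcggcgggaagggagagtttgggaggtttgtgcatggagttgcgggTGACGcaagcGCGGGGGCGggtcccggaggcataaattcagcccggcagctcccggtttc
Junb, chr8:84978749-84978888, minus strand: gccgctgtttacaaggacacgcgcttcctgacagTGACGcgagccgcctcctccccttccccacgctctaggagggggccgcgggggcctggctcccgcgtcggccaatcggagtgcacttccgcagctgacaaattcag
Egr2, chr10:67537729-67537868, plus strand: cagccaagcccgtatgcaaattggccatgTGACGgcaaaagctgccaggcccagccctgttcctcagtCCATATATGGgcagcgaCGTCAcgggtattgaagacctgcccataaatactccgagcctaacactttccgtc
Searches covered both strands of the 250 bases before each start site, and sites farther upstream were not looked for. A gene counted if any of its entries matched. The 7 genes had 11 entries, and the 27025 genes with a promoter entry had 32851. The half-site TGACG was present for 5 of the 7 genes, namely Fos, Fosb, Junb, Egr2 and Atf3, against 19.79% of 27025 genes with a promoter entry. The full CRE, TGACGTCA, which contains the half-site, was found in 0 of the 7, against 1.77% of genes, and the AP-1 site TGANTCA in 0 of the 7, against 7.82%. A CArG box was found upstream of Egr2 only, among the 7, against 1.62% of genes, and the EGR site upstream of Fosb only, against 5.33%. These are matches of letters and carry no evidence of binding.

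Library totals ran from 13386889 to 31843413 counts. The T cell marker list was present in full, with Cd3e, a chain of the CD3 complex, at 642 to 1061 CPM (a count scaled to a common library size) in Ex4 and 581 to 955 CPM in PBS. The sum of this list, mostly Gzma and Gzmb, was 70792 to 84631 CPM in Ex4 and 54387 to 79556 CPM in PBS, with PBS 1 lowest. All 22 epithelial markers were also detected, with a summed level of 575 to 1648 CPM in Ex4 and 864 to 1993 CPM in PBS, and Epcam at 97.4 to 144 CPM in Ex4 and 146 to 184 CPM in PBS. Of the 10 B and plasma cell markers and the 12 myeloid markers 0 were absent from all libraries, and their sums were 280.2 to 2250 and 127 to 233 CPM in Ex4, against 899 to 1484 and 127 to 253 CPM in PBS. The 10 stromal and endothelial markers summed to 44.6 to 60.1 CPM in Ex4 and 55.0 to 94.8 CPM in PBS. Of all 8 libraries PBS 1 had the highest myeloid sum and the highest stromal and endothelial sum. In such a sorted population, fewer cells of a type and less RNA per cell cannot be told apart. By fold change of Ex4 over PBS, 3 of 22 epithelial markers were above 0 (median log2 fold change -0.48), 0 of 10 B and plasma cell markers (-0.17), 7 of 12 myeloid markers (0.048), 2 of 5 tested stromal and endothelial markers (-0.018) and 8 of 13 T cell markers (0.040). Among the T cell markers, Cd8a was lower in Ex4 without overlap, at 953 to 1219 CPM against 1363 to 2074 CPM in PBS. Klrd1 was higher without overlap, at 503 to 566 CPM in Ex4 against 393 to 442 CPM in PBS. That was 1 of 13 in each direction, against 2.66% of all genes lower and 2.29% higher. In edgeR 0 of the markers of any of these lists were called over all genes. The part of cells other than T cells in the levels of the 10 genes was not tested, apart from fits with an epithelial score as a term.

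All 10 genes were above the low-count filter, and together they took 0.241% to 0.355% of all counts in Ex4 and 0.184% to 0.282% in PBS. Their levels were first compared with each other per length, as CPM per kb of the principal transcript, over all 8 libraries. Junb was highest, at a mean of 678 CPM per kb (range 353 to 1067), followed by Ier2 at 257, Jun at 171 and Jund at 106 CPM per kb. Fos stood at 36.8, Egr2 at 18.2, Atf3 at 15.8 and Egr1 at 10.9 CPM per kb. Fosb, at 1.60, and Egr3, at 1.15 CPM per kb, were the lowest. Junb therefore lay at the 99.47th percentile of tested genes by level per kb and Egr3 at the 25.18th.

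**Figure D1:**
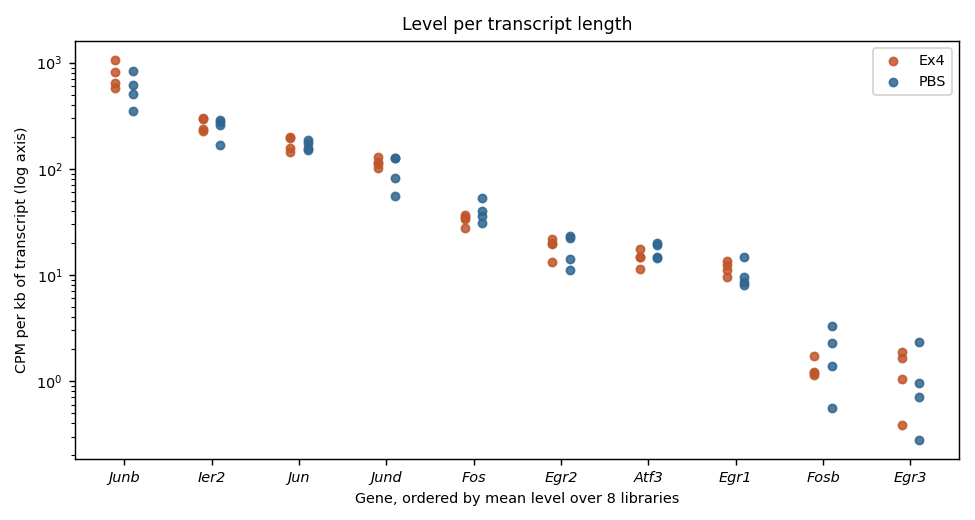
Level of each gene in CPM per kb of transcript (log axis), with 1 point per library, 4 Ex4 and 4 PBS, and genes ordered by their mean. Junb, Ier2, Jun and Jund lie above Fos in every library, and Fosb and Egr3 lie far below Egr1.

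Most neighbours in this order kept their order in all 8 libraries, with 3 exceptions. Ier2 was above Jun in 7 of 8 libraries, with a mean log2 ratio of 0.58 ± 0.33 (SD). Egr2 was above Atf3 in 6 of 8, with a mean log2 ratio of 0.18 ± 0.47, smaller than its spread. Fosb was above Egr3 in 4 of 8, so these 2 genes had no order. With the longer RefSeq model of Jund, 2878 bases in place of 1668, its mean was 61.4 CPM per kb, still between Jun and Fos.

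The comparison asked whether messenger levels of these genes differed with exendin-4 in CD45-sorted gut cells of anti-CD3-treated mice. It covers 1 time, 3 hours after injection, and earlier changes were not tested. None of the 10 genes passed the test over all genes (edgeR quasi-likelihood test, Benjamini-Hochberg adjustment over 14691 genes, threshold 0.05), where 0.0136% of all genes were called. At an unadjusted p under 0.05 there were also 0 of the 10, against 7.61% of all genes (3.71% higher and 3.9% lower in Ex4). DESeq2 called 0 of the 10, against 0.319% of the genes it tested. In 0 of the 10 did the Ex4 and PBS libraries separate without overlap, against 4.95% of all genes (2.29% higher and 2.66% lower in Ex4). The log2 fold change of Ex4 over PBS was above 0 for 7 of the 10, against 52.9% of all genes, with a median of 0.096, against 0.020 over all genes tested. With PBS 1 left out those of Egr2, Egr3 and Ier2 fell below 0, at -0.092, -0.11 and -0.051, and the other signs stayed. A p that misses the threshold does not show that the groups were alike, so each fold change is given with its interval.

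**Figure D2:**
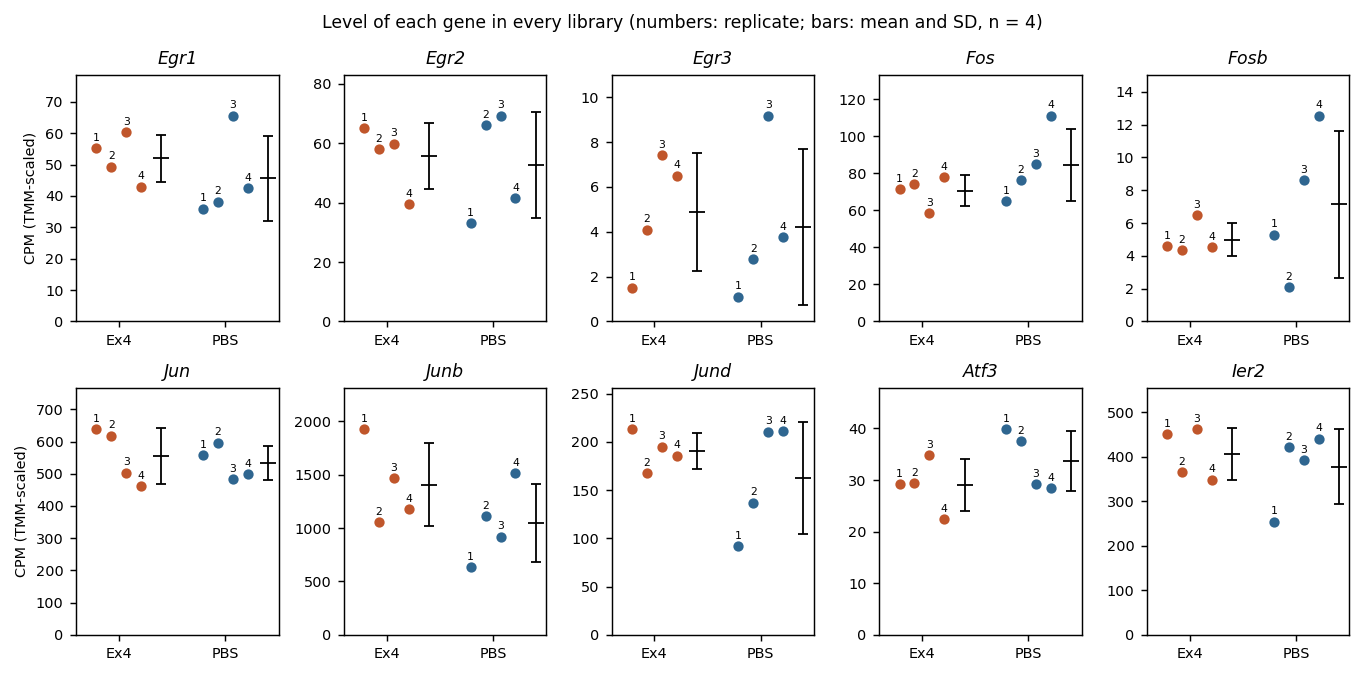
CPM of each gene in every library, Ex4 left and PBS right, with replicate numbers beside the points and bars for the mean and SD (n = 4 each). The Ex4 and PBS points overlap for every gene, and PBS 1 is the lowest library for Egr1, Egr2, Egr3, Junb, Jund and Ier2.

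Among the EGR genes, Egr1, a zinc-finger factor on chromosome 18, had 55.2, 49.4, 60.3 and 43.0 CPM in Ex4 replicates 1 to 4, against 36.0, 38.2, 65.6 and 42.5 CPM in PBS replicates 1 to 4. Every Ex4 library lay above 3 of the PBS libraries, and PBS 3 was the highest of all. Its log2 fold change was 0.19 (SE 0.19, 95% interval -0.21 to 0.59, edgeR adjusted p = 0.874). With 1 library left out it ranged from 0.083 (without PBS 1) to 0.38 (without PBS 3, edgeR adjusted p = 0.513). Leaving out Ex4 3 gave 0.090, leaving out PBS 2 gave 0.10, and leaving out both gave 0.024. PBS 3 was the one PBS library above any Ex4 library, so the groups did not overlap without it, as for 8.86% of all genes in that setting.

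Egr2, a zinc-finger factor that restrains T cell activation (chromosome 10, 67535475 to 67542188), had 65.0, 58.1, 59.8 and 39.6 CPM in Ex4, against 33.2, 66.0, 69.3 and 41.6 CPM in PBS. High and low libraries were found in both groups, with PBS 3 highest and PBS 1 lowest. Ex4 over PBS gave a log2 fold change of 0.084 (SE 0.23, 95% interval -0.41 to 0.58, edgeR adjusted p = 0.963).

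Egr3, which acts with Egr2 in T cells (chromosome 14, 70077203 to 70082614), was scarce, at 1.51, 4.10, 7.42 and 6.51 CPM in Ex4, against 1.11, 2.78, 9.18 and 3.77 CPM in PBS. Replicate 1 was the lowest library in both groups. The smallest count was 23, in PBS 1, for which counting error alone is 20.9%. Its log2 fold change of 0.21 had the widest interval of the 10, from -1.06 to 1.49 (SE 0.59, edgeR adjusted p = 0.963), and was 0.90 without PBS 3 and -0.11 without PBS 1. With an epithelial score as a term it was 1.32 (edgeR adjusted p = 0.356). That score was lowest in Ex4 1, at a mean log2 CPM of 3.61, and highest in PBS 3, at 5.60.

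Among the FOS genes, Fos, the classical partner of JUN proteins (chromosome 12, 85473890 to 85477273), had 71.5, 74.0, 58.6 and 78.1 CPM in Ex4, against 65.2, 76.3, 85.1 and 111 CPM in PBS. PBS 4 was highest and Ex4 3 lowest. The other Ex4 libraries, at 71.5 to 78.1 CPM, lay within the range of the other PBS libraries, 65.2 to 85.1 CPM. Of the 4 Ex4 libraries 0 lay above the PBS median. On the log2 scale the fold change was -0.26 (SE 0.16, 95% interval -0.61 to 0.089, edgeR adjusted p = 0.766). With 1 library left out it ranged from -0.37 (without PBS 1) to -0.12 (without PBS 4).

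Fosb, which encodes a close relative of FOS (chromosome 7, 19302696 to 19310051), had 4.61, 4.33, 6.48 and 4.53 CPM in Ex4, against 5.29, 2.12, 8.63 and 12.5 CPM in PBS. The Ex4 libraries lay within the range of the PBS libraries, which spread much more (coefficient of variation 20.2% in Ex4 and 62.6% in PBS). The log2 fold change was -0.51 (SE 0.44, 95% interval -1.45 to 0.42, edgeR adjusted p = 0.848). Its size depended on the fit, at -0.15 with limma-voom and -0.27 with a replicate block. It was -0.83 without PBS 2, -0.12 without PBS 4 and -0.98 without both PBS 2 and Ex4 3.

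Among the JUN genes, Junb, an AP-1 subunit abundant in activated T cells (chromosome 8, 84974484 to 84978718), had 1929, 1056, 1468 and 1176 CPM in Ex4, against 638, 1109, 921 and 1513 CPM in PBS. Ex4 1 was the highest library and PBS 1 the lowest, and the remaining libraries of both groups were interleaved. This gave a log2 fold change of 0.43 (SE 0.25, 95% interval -0.11 to 0.97, edgeR adjusted p = 0.731), with the smallest unadjusted p of the 10 in edgeR, 0.109. Leaving out Ex4 1 gave 0.23, leaving out PBS 1 gave 0.24 and leaving out PBS 4 gave 0.64. The annotated exons of Junb share 173 bases with Prdx2 on the opposite strand, and whether the counting used strand is not given. Prdx2 was at 135 to 183 CPM in Ex4 and 158 to 215 CPM in PBS (log2 fold change -0.20, edgeR adjusted p = 0.800).

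Jun, the best known AP-1 subunit (chromosome 4, 95049034 to 95052222), had 639, 618, 503 and 462 CPM in Ex4, against 558, 596, 483 and 498 CPM in PBS. It was the steadiest gene of the set in PBS, with a coefficient of variation of 15.5% in Ex4 and 9.83% in PBS. A log2 fold change of 0.058 was obtained (SE 0.14, 95% interval -0.25 to 0.37, edgeR adjusted p = 0.961), the narrowest interval of the 10.

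Jund, a JUN subunit that many resting cells also express (chromosome 8, 70698949 to 70700616), had 213, 168, 195 and 186 CPM in Ex4, against 92.3, 137, 211 and 211 CPM in PBS. The Ex4 libraries were close together, whereas PBS 1 and PBS 2 were low and the other two PBS libraries were as high as Ex4. Its log2 fold change was 0.23 (SE 0.22, 95% interval -0.25 to 0.70, edgeR adjusted p = 0.870), and ranged from 0.025 (without PBS 1) to 0.36 (without PBS 4) with 1 library left out. It was 0.14 without PBS 2, 0.35 without PBS 3 and 0.42 with the epithelial score as a term. Jun and Jund each overlap an annotated antisense gene that is not in the count table. The shared exon bases number 232 for Jun and 877 for Jund, whose transcript has 1668, against 173 for Junb. The limit on strand given for Junb holds for both, and the shared part is largest in Jund.

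Atf3, a stress-induced factor that pairs with JUN proteins (chromosome 1, 191170296 to 191218039), had 29.2, 29.5, 34.9 and 22.4 CPM in Ex4, against 39.9, 37.6, 29.2 and 28.4 CPM in PBS. Ex4 4 was lowest, and PBS 1, the lowest library for 6 other genes, was highest here. The log2 fold change was -0.22 (SE 0.17, 95% interval -0.59 to 0.15, edgeR adjusted p = 0.833), with -0.34 without Ex4 3, -0.13 without Ex4 4 and -0.14 without PBS 1. Ier2, an immediate early response gene that encodes a nuclear protein (chromosome 8, 84661331 to 84662852), had 450, 364, 462 and 348 CPM in Ex4, against 254, 421, 393 and 440 CPM in PBS. PBS 1 alone stood low, and the other libraries of both groups overlapped. Its log2 fold change was 0.11 (SE 0.17, 95% interval -0.26 to 0.48, edgeR adjusted p = 0.936), and -0.051 without PBS 1.

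**Figure D3:**
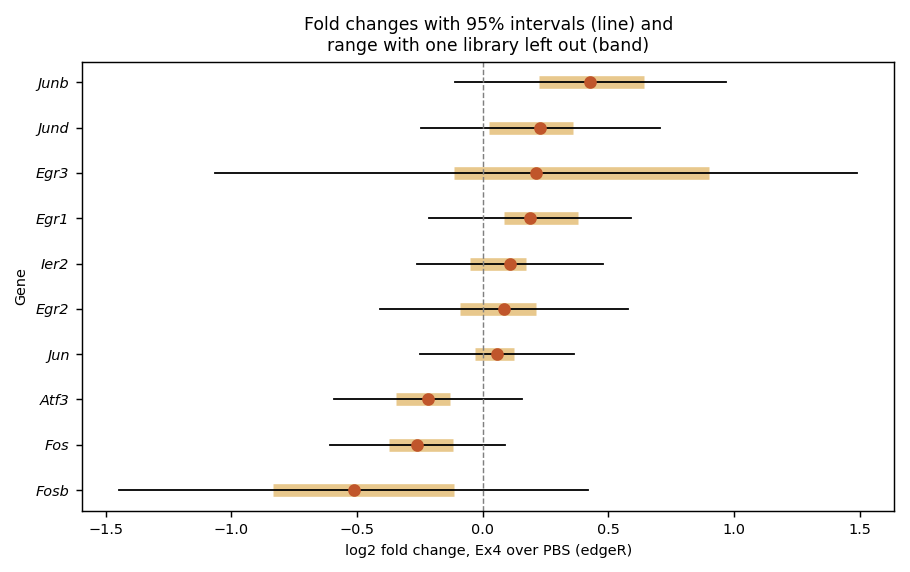
Log2 fold change of Ex4 over PBS for each gene (point), with its 95% interval (line) and its range when 1 library was left out (band). Every interval includes 0, from Junb at 0.43 to Fosb at -0.51, and the bands of Egr3, Ier2, Egr2 and Jun cross 0.

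The composition of each family was described as the share of each gene in the family's summed CPM per kb, without a test. Junb made up most of the JUN family messenger in every library, with 76.5%, 66.4%, 74.7% and 71.7% in Ex4, against 60.5%, 69.5%, 64.7% and 74.7% in PBS. Jun held 14.4% to 22.1% in Ex4 and 14.0% to 30.0% in PBS. In the FOS family the largest share belonged to Fosl2, which encodes the FOS relative FRA2, in every library but PBS 1, where Fos held more. Fos held 27.5%, 33.2%, 22.4% and 29.6% in Ex4, against 59.1%, 32.01%, 41.3% and 35.9% in PBS. All Ex4 shares of Fos but that of Ex4 2 lay below every PBS share. Fosl2 itself was at 567, 448, 613 and 554 CPM in Ex4, against 124, 494, 347 and 589.9 CPM in PBS, with PBS 1 far below the rest (log2 fold change 0.49, SE 0.39, edgeR adjusted p = 0.841). Fosb held at most 1.38% in Ex4 and 2.68% in PBS. Within the EGR family Egr2 held 53.2% to 62.6% in Ex4 and 57.0% to 70.5% in PBS, and Egr1 held 34.4% to 38.1% in Ex4 and 27.0% to 40.9% in PBS. The summed FOS family level was 0.0883 to 0.138 of the summed JUN family level in Ex4 and 0.0897 to 0.131 of it in PBS.

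**Figure D4:**
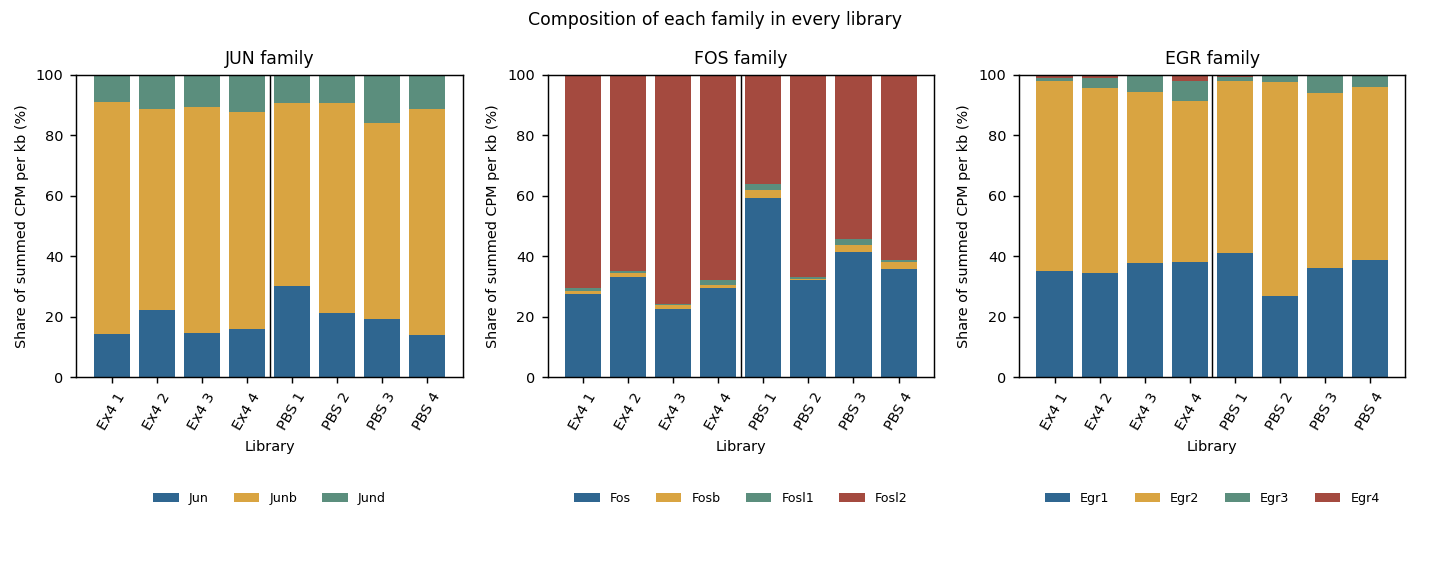
Share of each gene in the summed CPM per kb of the JUN, FOS and EGR families in every library, Ex4 left of the line and PBS right. Junb leads the JUN family and Egr2 the EGR family in all 8 libraries, and Fosl2 leads the FOS family in all but PBS 1.

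The 10 genes did not move as 1 block across the libraries. PBS 1 was lowest for 6 of them and highest for 1, Atf3, while PBS 3 was highest for 3, Egr1, Egr2 and Egr3. Ex4 1 was highest for 3, Jun, Junb and Jund. Correlations of log2 CPM over the 8 libraries were computed for 45 pairs, and after adjustment 0 of them passed (exact permutation, two-sided), with 5 at an unadjusted p under 0.05. Junb and Ier2 were the closest pair (Pearson r = 0.86, with an exact permutation p = 0.00583 and an adjusted p = 0.262). Spearman's rho of this pair was 0.76 (exact permutation p = 0.0368, adjusted p = 0.647). Their r was 0.88 on values centred on each group mean (exact permutation within groups, p = 0.00868). It was 0.63 without Ex4 1 and PBS 1, the libraries farthest from the median of Junb. Junb and Jund had r = 0.77 (exact permutation p = 0.0258, adjusted p = 0.373) and rho = 0.74 (exact permutation p = 0.0458, adjusted p = 0.647). Without the same 2 libraries r was 0.26, so this relation rested on them. Fos and Jun, the textbook AP-1 pair, had r = -0.29 (exact permutation p = 0.514, adjusted p = 0.758) and rho = -0.52 (exact permutation p = 0.197, adjusted p = 0.681).

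**Figure D5:**
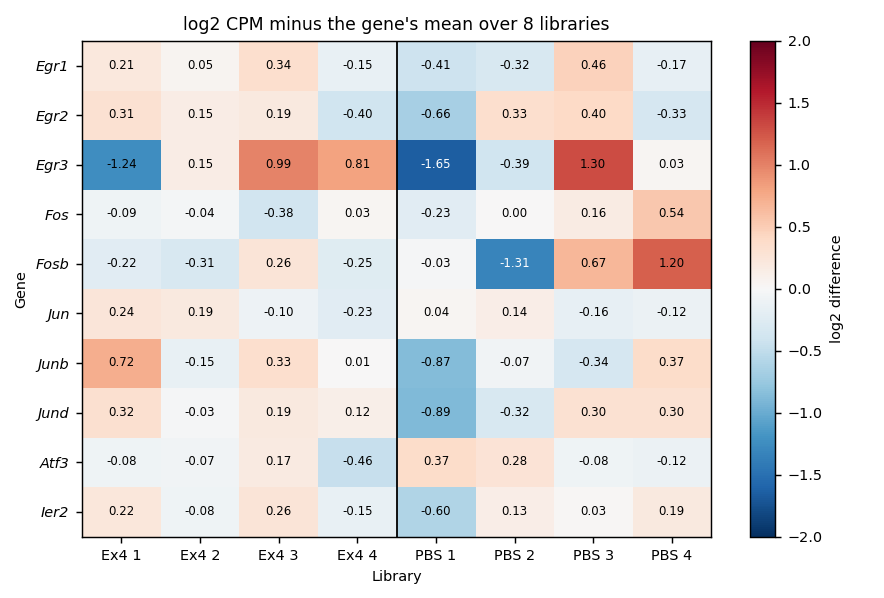
Log2 CPM of each gene in every library minus its mean over the 8 libraries, Ex4 left of the line and PBS right, on a scale from blue (low) to red (high). The column of PBS 1 is low for Junb, Jund, Ier2 and the EGR genes and high for Atf3, and the widest deviations belong to Egr3 and Fosb.

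For each gene, the most similar pattern over the 8 libraries was sought among 11362 tested genes whose log2 CPM averaged 1 or more, as a description chosen from many. The closest were Arhgap30 for Jun, Atp5d for Junb, Nap1l4 for Atf3, Sema7a for Jund and Larp7 for Egr3, with Pearson r from 0.97 to 0.99. Dipk1c was closest to Ier2 (r = 0.97), Vasp to Fosb (r = 0.95), Mir22hg to Egr1, Rpl29 to Fos and Avl9 to Egr2 (each r = 0.93). Spearman's rho was 0.76 for Dipk1c, 0.79 for Vasp and 0.83 for Rpl29, and 0.90 to 0.98 for the other closest genes.

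Genes around the immediate early group were summarised by list, and 0 genes of any list passed over all genes in edgeR. Of 17 other AP-1 family genes 9 had a log2 fold change above 0 and the median was 0.013. Batf3, a partner of JUN proteins in lymphocytes and dendritic cells, was at 52.0 ± 16.9 CPM in Ex4 and 69.3 ± 7.31 CPM in PBS (SD, n = 4 each, edgeR adjusted p = 0.658). Mafk, a small MAF factor, and Atf6, a sensor of unfolded proteins, had log2 fold changes of 0.28 and 0.36. Of 4 other EGR family and corepressor genes 3 were tested, with a median of -0.11. The corepressor genes Nab2 and Nab1, whose products bind EGR proteins, had log2 fold changes of -0.20 and 0.067, and Wt1 of -0.11.

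Upstream regulators were likewise without calls. Of 6 tested genes for SRF and its cofactors 5 were above 0, with a median of 0.13. Elk3, an ETS-domain partner of SRF, was at 50.1 ± 11.0 CPM in Ex4 and 35.7 ± 6.16 CPM in PBS (SD, n = 4 each, log2 fold change 0.49, edgeR adjusted p = 0.538), and Elk1 and Mrtfa had log2 fold changes of 0.27 and 0.13. Of 26 kinases and RAS activators upstream of these genes 15 were above 0, with a median of 0.012. Map2k1, which encodes the ERK-activating kinase MEK1, was at 54.6 ± 6.58 CPM in Ex4 and 85.5 ± 32.4 CPM in PBS (SD, n = 4 each), with a log2 fold change of -0.65 (SE 0.21, edgeR adjusted p = 0.452). It was the 1 gene of the 26 whose Ex4 libraries all lay below the PBS libraries, against 2.66% of all genes. Rps6ka1, a kinase downstream of ERK, and Rasgrp1, which activates RAS in T cells, had log2 fold changes of -0.36 and -0.45. Of 8 genes for CREB and its cofactors 4 were above 0, with a median of 0.033, and Crem, Creb1 and Ep300 had log2 fold changes of 0.60, 0.21 and 0.19. Over all tested genes with a full CRE upstream, 335 in number, the median log2 fold change was 0.021, against 0.015 in 11250 genes without it, and edgeR called 0 of the 335 and 1 of the 11250. For the half-site TGACG, which 5 of the 7 genes with a promoter entry carry, the median was 0.011 in 3340 genes with it and 0.018 in 8245 genes without it.

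Of 34 other immediate early genes 17 were above 0 and 17 below, with a median of -0.015, and 3 of the 34 were higher in Ex4 without overlap between groups, against 2.29% of all genes. These were Zfp36, whose product speeds the decay of AU-rich messengers, at 125.0 ± 14.1 CPM in Ex4 and 84.0 ± 10.9 CPM in PBS (log2 fold change 0.57, SE 0.14, edgeR adjusted p = 0.310), Ier3 (0.99, SE 0.34, edgeR adjusted p = 0.477) and Nfkbiz (0.35, SE 0.14, edgeR adjusted p = 0.556). Of 14 tested EGR targets 10 were above 0, with a median of 0.069. The cytokine signalling inhibitor Socs3 was at 215 ± 41.6 CPM in Ex4 and 117 ± 53.2 CPM in PBS (SD, n = 4 each, edgeR adjusted p = 0.614), the ubiquitin ligase gene Cblb had a log2 fold change of 0.29, and Id3 of -0.48. Of 14 tested AP-1 targets 6 were above 0, with a median of -0.033. Among them the log2 fold changes were 0.89 for the inhibitory receptor gene Havcr2, -0.69 for Ifng, the interferon of T cells, and -0.96 for the growth factor gene Csf2.

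Immediate early genes are also induced while tissue is dissociated, so a list of heat shock and dissociation genes was set beside them. Its summed level was 6754 to 8386 CPM in Ex4 and 8189 to 8727 CPM in PBS, with 5 of 14 genes above 0 and a median log2 fold change of -0.16. Hsf1, the heat shock transcription factor gene, had a log2 fold change of -0.52, Hspa8 of -0.31 and Bag3 of 0.37, and 0 passed over all genes. Hsf1 was lower and Bag3 higher in Ex4 without overlap between groups. That was 1 of 14 in each direction, against 2.66% of all genes lower and 2.29% higher. The part of dissociation in the levels of the 10 genes was not tested.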

How the data were processed

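RNA of CD45-sorted, Percoll-enriched gut cells was made into strand-specific mRNA libraries, per the labels' protocols. The submitters' processing notes name STAR 2.7.9a, DESeq2 and mm10, with no role for any. Which counter, strand setting and annotation made the table is not given in the sources used here. Values are as the authors deposited them, raw whole counts for each gene symbol, 1 column per mouse, and 0 per-sample columns were left unused. Total counts were 22009510, 26778167, 31843413 and 13386889 in Ex4 1 to 4 and 19477917, 25333644, 19622004 and 18266449 in PBS 1 to 4. Libraries of a group differed by more than sampling noise (mean chi-square per gene 20.6 to 77.0). Pairs with PBS 1 had 57.2 to 77.0, and the other PBS pairs 20.6 to 42.6.

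The test was edgeR 4.0.16 under R 4.3.3 (filterByExpr, TMM scaling, robust quasi-likelihood F test), with Benjamini-Hochberg adjustment over 14691 genes. SEs came from the fold change and its F statistic. The script was tested on simulated data. Lengths and positions came from the GENCODE annotation (GRCm38, the assembly also called mm10), and promoters from RefSeq. Log2 CPM used a prior count of 2. Alternatives were DESeq2 1.42.0, limma-voom (limma 3.58.1), other scalings, filters and covariates, a replicate block and each library left out. Lengths from exon unions and from RefSeq were added after seeing the data.

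The members and lists were chosen with earlier results of these data known. All 10 members are named, with the most similar gene of each and the 3 genes of smallest p in each list around them (marker lists are given by their sums, and unnamed gene models and receptor gene segments were passed over). Prdx2, Fosl2, Srf, Egr4 and the marker genes were chosen for other reasons, some after their values were seen. Figures used Python 3.11.15 with matplotlib 3.10.9.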

Additional observations from a re-analysis of the deposited data

Results flagged for a closer look

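For the log2 CPM of the 10 genes and for their shares in the JUN, FOS and EGR families, the distance of the most extreme of 4 libraries from the next one was expressed as a part of the group's range. Of 36 such groups 2 exceeded Dixon's 95% limit for 4 values. About 1 in 20 groups does so by chance, which here comes to 1.8. In Ex4, Fosb was high in replicate 3, at a log2 CPM of 2.72 against 2.23 in the next library (ratio 0.845). In PBS, the share of Egr2 in the EGR family was high in replicate 2, at 70.5% against 57.7% in the next library (ratio 0.944).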

How the results depend on the processing

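Over the 19 other settings 0 of the 10 genes were called in any, and the lowest adjusted p was 0.356, for Egr3 with an epithelial score as a term (edgeR). The log2 fold changes of Egr1, Fos, Fosb, Junb, Jund and Atf3 kept their sign in all 19. That of Jun was -0.023 with the epithelial score, and ranged from -0.029 (without Ex4 1) to 0.12 (without Ex4 4) when 1 library was left out, being -0.017 without Ex4 2 and -0.023 without PBS 3. That of Egr2 ranged from -0.092 (without PBS 1) to 0.21 (without PBS 3), being -0.011 without Ex4 1 and -0.028 without PBS 4. That of Egr3 ranged from -0.11 (without PBS 1) to 0.90 (without PBS 3), being -0.082 without Ex4 3, and was -0.23 without both PBS 2 and Ex4 3. That of Ier2 ranged from -0.051 (without PBS 1) to 0.17 (without PBS 4). Over all genes 2 were called, against 54 with DESeq2, 1 with limma-voom, 8 without a low-count filter, 1 with the epithelial score, and 1 to 14 with 1 library left out, the 14 without PBS 2. The number of the 10 genes without overlap between groups ranged from 0 to 1 with 1 library left out, the 1 being Egr1 without PBS 3. Genes of the other lists were called in 0 of the 19 settings, and 0 of the 45 correlations passed in the 10 settings run for them. Whether same-numbered mice were handled as pairs is not given in the labels. Same-numbered libraries deviated with correlations from -0.24 to 0.14, and 1 of 4 Ex4 libraries was closest to its own number. Such correlations cannot settle it, since a pairing with little shared effect on expression would look the same. With a replicate block 1 gene was called over all genes and 0 of the 10. With lengths from exon unions Fosb was at 0.972 CPM per kb, below Egr3 at 1.03. The cause of these shifts was not tested. Counting error at the smallest count was highest for Egr3 (20.9%) and Fosb (14.0%), below their coefficients of variation, which were 54.3% and 20.2% in Ex4 and 83.0% and 62.6% in PBS.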

Other observations

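Egr4, the fourth EGR gene, did not reach the low-count filter, and it was looked at after its values were seen. It had 19, 19, 11 and 16 counts in Ex4, against 6, 5, 6 and 2 counts in PBS, or 0.842, 0.715, 0.379 and 1.13 CPM in Ex4, against 0.289, 0.207, 0.298 and 0.113 CPM in PBS. The groups did not overlap, as for 3.87% of the 21452 genes with a count in at least 1 library. Without a filter its log2 fold change was 1.70 (SE 0.97, edgeR adjusted p = 0.714).

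Srf, whose product binds the CArG box, differed widely among libraries of the same group. It was at 89.5, 68.6, 40.3 and 336 CPM in Ex4, against 254, 51.4, 69.0 and 254 CPM in PBS. Ex4 4, PBS 1 and PBS 4 were high, and the highest of the other libraries was Ex4 1. Its log2 fold change was -0.24 (SE 0.85, edgeR adjusted p = 0.973).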
